A study of Mus musculus with 24 samples.

Results

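The 34 genes described here encode the ionotropic and metabotropic glutamate receptors and the Cacng family of transmembrane AMPA receptor regulatory proteins and calcium channel gamma subunits. They were chosen by symbol from the 21965 genes of the count table: Gria1 to Gria4 (AMPA receptors), Grik1 to Grik5 (kainate receptors), Grin1, Grin2a to Grin2d, Grin3a and Grin3b (NMDA receptors), the Grid genes (delta receptors), the Grm genes (metabotropic receptors) and Cacng1 to Cacng8. The rule uses symbols and no measured value. The source was the spinal cord of OL-Ribotag mice (plp-cre;rpl22HA), in which tamoxifen-activated Cre under the Plp promoter switches on an HA-tagged ribosomal protein, RPL22, so that the mRNA on ribosomes of mature oligodendrocytes (OLs), here called the OL translatome, can be immunoprecipitated. All groups, naive controls included, carried the same alleles and were tamoxifen-induced female mice of 10 to 12 weeks of age according to the labels. Injured mice received a 50 kdyn contusion at T9 and their tissue was taken 2, 10 or 42 days later (dpi 2, dpi 10, dpi 42), whereas naive mice were not injured. The paper places the collection of naive tissue at the same time after tamoxifen as that of dpi 42 tissue. By that account naive mice were older, and further from induction, than dpi 2 and dpi 10 mice. Age and time since induction cannot be told apart from injury in comparisons of dpi 2 or dpi 10 with naive. The methods set surgery at a fixed time after tamoxifen. Between injured stages, age and time since induction therefore cannot be told apart from time since injury. OL and total spinal cord RNA were sequenced from 3 tissue pools a stage, each pooled from a pair of mice according to the methods, which gave 8 groups and 24 libraries. The same Cre line is also active in Schwann cells of spinal nerve roots.

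Ionotropic glutamate receptors are tetrameric cation channels opened by glutamate. AMPA receptors carry fast synaptic currents, kainate receptors act both as channels and as modulators of release, and NMDA receptors pass calcium once depolarization relieves their magnesium block. Metabotropic receptors couple to G proteins, and Cacng proteins of the TARP group escort AMPA receptors to the membrane and shape their gating. Cells of the OL lineage express AMPA, kainate and NMDA receptors, and excess glutamate released by injured white matter is toxic to mature OLs through them.

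Upstream sequence of Cacng5, Grik3 and Grm3 is shown because these were the members that passed the OL filtration described below, Cacng5 and Grik3 as up-regulated and Grm3 as down-regulated. Each line holds the 250 bases before an annotated start (for Cacng5 the first of 2), 5′ to 3′ on the strand of the gene, taken from RefSeq on GRCm38.p6. The windows are chr11:107915056-107915305 on the minus strand for Cacng5, chr4:125490446-125490695 on the plus strand for Grik3 and chr5:9725353-9725602 on the minus strand for Grm3. Capitals mark matches, on either strand, to the letters GGGCGG of the GC box or TGANTCA of the AP-1 element.
Cacng5: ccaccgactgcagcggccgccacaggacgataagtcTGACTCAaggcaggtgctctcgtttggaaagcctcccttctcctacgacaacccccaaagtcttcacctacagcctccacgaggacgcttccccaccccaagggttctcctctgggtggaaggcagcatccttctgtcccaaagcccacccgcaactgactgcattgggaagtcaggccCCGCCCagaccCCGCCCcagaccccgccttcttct
Grik3: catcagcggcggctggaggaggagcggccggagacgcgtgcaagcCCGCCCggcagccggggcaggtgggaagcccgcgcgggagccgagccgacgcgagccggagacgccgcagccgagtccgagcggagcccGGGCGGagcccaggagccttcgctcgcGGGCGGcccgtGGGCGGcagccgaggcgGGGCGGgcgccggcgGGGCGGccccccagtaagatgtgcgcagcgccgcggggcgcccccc
Grm3: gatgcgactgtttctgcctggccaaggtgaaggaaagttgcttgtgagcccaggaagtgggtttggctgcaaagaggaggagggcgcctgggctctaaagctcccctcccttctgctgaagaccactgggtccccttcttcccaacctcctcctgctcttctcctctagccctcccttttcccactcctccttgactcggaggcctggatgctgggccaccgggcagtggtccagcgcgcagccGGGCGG
The Cacng5 window held 1 AP-1 match and 2 GC boxes, the Grik3 window 6 GC boxes and the Grm3 window 1 GC box, with no overlap between the 2 kinds of motif. The window of the other Cacng5 start (chr11:107911363-107911612, minus strand) held none of these motifs and 2 CpG. Among 32851 RefSeq promoters of the same length, 6.75% held the AP-1 letters and 32.7% a GC box. A search for the letters ACAAAG of the SOX core or CAGCTG of the E-box, which 16.5% and 13% of all promoters held, found no match in these windows. The Grik3 window was rich in CpG, with 42 of them, a number reached by 0.865% of all promoters, whereas Cacng5 had 12 and Grm3 had 8 (median 6 over all promoters). These matches describe letters, and binding was not measured.

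Sequencing depth was 25840127 to 32987841 gene-assigned counts a library, so that 3 counts, used here as the floor of detection, equalled 0.0840 to 0.127 CPM (counts per 1000000 library counts after TMM scaling). Summed CPM of 10 mature OL markers was 100947 to 160554 in OL and 19842 to 28174 in total RNA libraries. The sum of 8 neuron markers was 644 to 1437 in OL and 4794 to 11359 in total RNA. The sum of 7 astrocyte markers split the OL libraries: 5 of them (naive replicate 3, dpi 2 replicate 3, dpi 10 replicate 2 and dpi 42 replicates 1 and 2) held 6244 to 12188 CPM and the other 7 held 930 to 2565. In total RNA the astrocyte marker sum was 4812 to 6157 CPM in naive tissue and 6338 to 6424 CPM at dpi 2. It was 7256 to 7870 CPM at dpi 10 and 6594 to 7796 CPM at dpi 42. Of the 5 OL libraries, all but dpi 10 replicate 2 were above every total RNA library of their stage. The same 5 OL libraries were the highest of their stage in the sum of 7 OPC markers, at 118 to 165 CPM against 42.1 to 95.5 in the other 7. The Schwann cell marker sum in OL libraries was 690 to 1249 CPM in naive tissue, 967 to 1545 at dpi 2, 1859 to 2736 at dpi 10 and 1980 to 2301 at dpi 42, with up to 2 of 6 markers at 0 in a library. The sum of 7 microglia and macrophage markers in OL libraries was 18 to 24.1, 46.0 to 59.2, 95.3 to 126 and 53.5 to 95.5 CPM at these stages, and the part of these cells in the OL changes was not tested. Both libraries of pool 2 at dpi 2 held 2414 to 2604 counts of 4 Y-linked genes against at most 13 in the 22 other libraries, which goes against the labelled sex of that pool. At dpi 42, title and description named different kinds of RNA for 2 libraries, whose kind was taken from the description and the column name. Where a result changed without such libraries, this is given for some results only. Larger shifts in the counts of calls are listed in the closing section.

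Of the 34 members, 33 passed the filter on low counts (at least 10 counts over all libraries); Grm6, the retinal bipolar cell receptor, did not. Cacng1, the skeletal muscle gamma subunit, had no counts in any OL library, and Cacng6 had counts in OL RNA in dpi 2 replicate 3 alone. A gene was called at q < 0.05 (edgeR quasi-likelihood test with Benjamini-Hochberg adjustment over 17167 genes) and a Log2FC past 0.5. The p-values measure the spread between pooled libraries (3 a group) within groups. That spread was estimated in 1 fit over all 8 groups and not from the compared groups alone. The strand setting of the read counting was not given in the sources used here, so Grin3b, whose exons overlap those of Tmem259 on the opposite strand over 399 bases, cannot be separated from that gene, and the same holds for antisense transcripts at Grin1, Grin2d, Grm2, Grm7 and Cacng2.

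In naive spinal cord the glutamate receptor genes were, with 1 exception, not enriched in the OL translatome. OL enrichment, the Log2FC of OL over total RNA, was positive and called for Grm3 only, while 25 of 33 members were lower in OL than in total RNA (21.7% and 28.6% of all genes were called higher and lower). The median over members was -3.08 against -0.27 over all genes tested. Members with strong depletion included Grm5 (-4.48), Grin1 (-4.46), Gria2 (-4.15) and Cacng2, encoding stargazin (-4.09), and of the 5 kainate members Grik3 (-2.30), Grik2 (-0.72) and Grik5 (-0.68) were called lower. The kainate members Grik1 (0.41) and Grik4 (-0.04) and the presynaptic receptor gene Grm7 (-0.49) were not called. Grik2 and Grik5 each lost their call in 3 of 36 alternative settings. Without the 5 OL libraries high in astrocyte markers, Grik1 was called higher, Grin2c was called lower and Grik2 was no longer called. In bulk RNA, fewer cells of a type and less RNA per cell cannot be told apart.

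Per kb of exon, the most abundant members of the naive OL translatome were Grm3 (68.5 ± 9.32 CPM per kb, SD, n = 3) and Cacng7 (40.2 ± 7.38), whose libraries overlapped neither each other nor the next gene. Gria4 (14.9 ± 3.55) and Grik5 (11.1 ± 1.5) followed and overlapped. At dpi 2 the order was Cacng7 (39.5 ± 4.76), Cacng5 (15.1 ± 4.24), Grik5 (10.5 ± 1.96) and Grm3 (9.19 ± 2.19), where Cacng7 stood clear of the rest and each of the other 3 overlapped its neighbour. Cacng5 had stood at 0.444 CPM per kb in naive OLs. At dpi 10 and dpi 42, Cacng7 (50.4 and 53.2), Grm3 (24.7 and 20.1) and Grik5 (12.8 and 12.5) led in that order, with no overlap between neighbours.

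**Figure D1:**
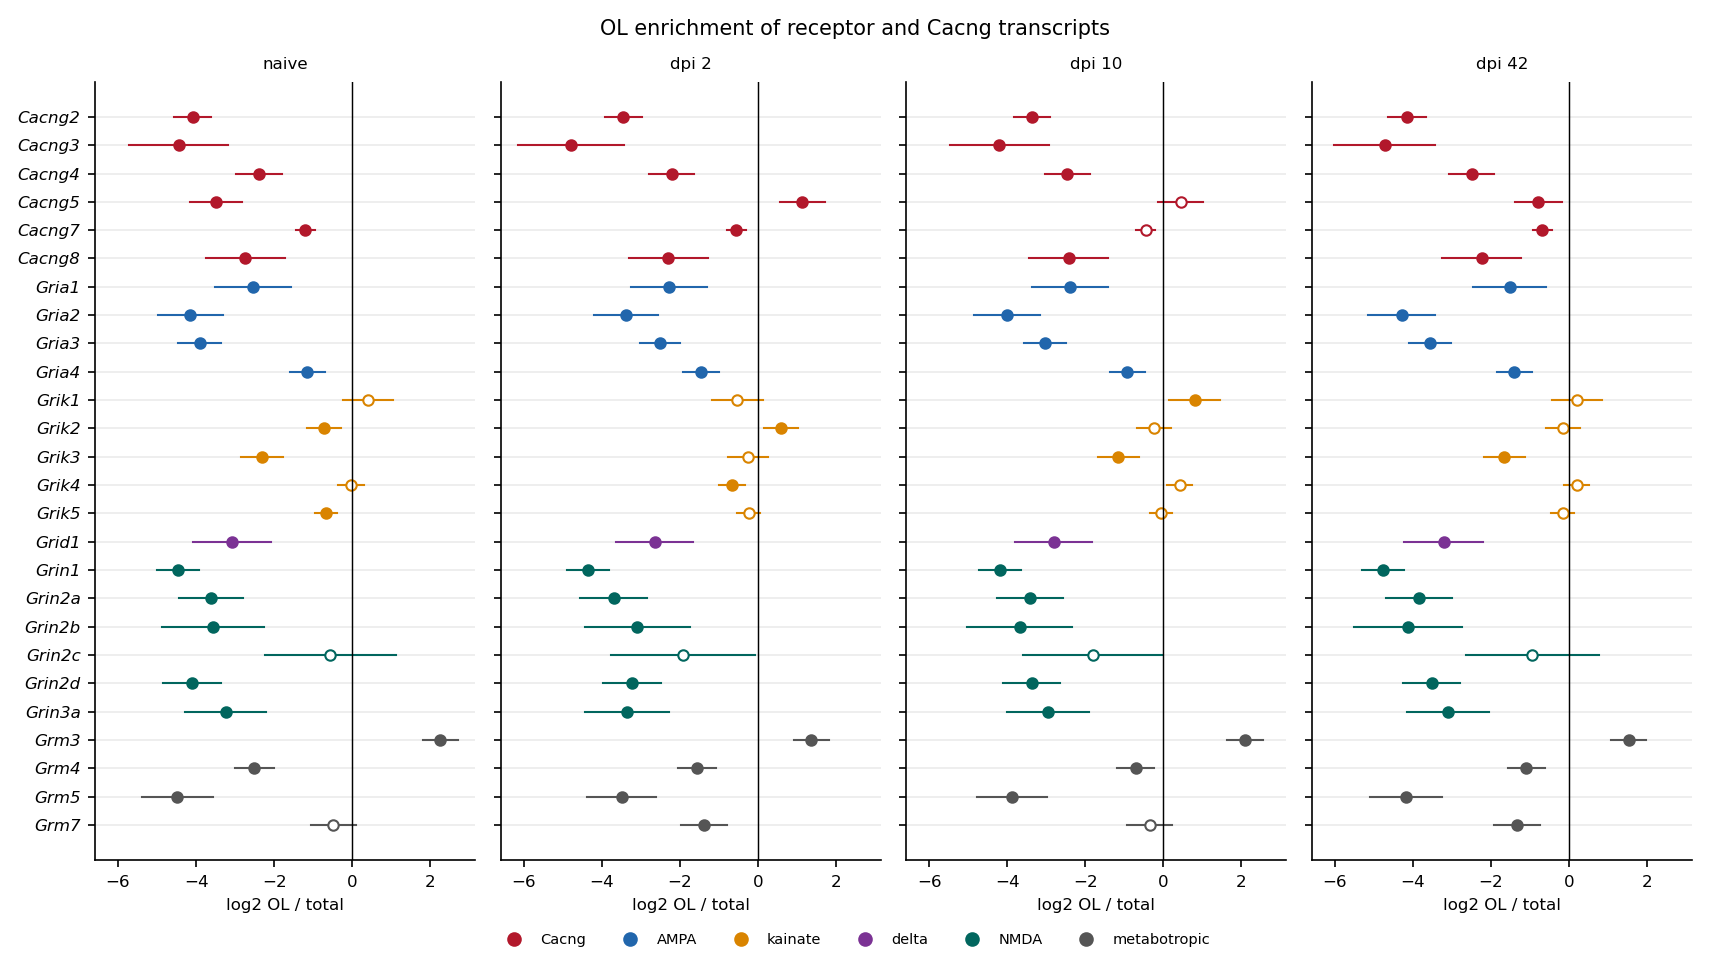
OL enrichment (Log2FC of OL over total RNA, horizontal axis) of 26 members in naive tissue and at dpi 2, 10 and 42. Points are estimates from 3 OL and 3 total RNA libraries, bars are 95% confidence intervals, and filled points were called. Grm3 lies right of 0 in all 4 panels, and Cacng5 moves from -3.49 in naive tissue to 1.14 at dpi 2.

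After injury, OL enrichment was called higher for 3 members at dpi 2 (Grm3, Cacng5 and Grik2), for 2 at dpi 10 (Grm3 and Grik1) and for Grm3 alone at dpi 42, against 20.5%, 21.2% and 21.1% of all genes. It was called lower for 22, 20 and 24 members, against 27.2%, 27.3% and 27.0%. The Grik1 enrichment at dpi 10 (0.80, q = 0.0357) was not called with a term for each tissue pool (0.83, q = 0.0535) nor without OL dpi 10 replicate 2 (0.76, q = 0.083). Grik2 enrichment at dpi 2 (0.60) was 0.33 (q = 0.2) without OL dpi 2 replicate 3.

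The OL translatome itself changed mainly downward among receptor genes. At dpi 2, 3 members rose against naive (Cacng5, Grik3 and Grik2) and 13 fell, where 15.9% of all genes were called higher and 16.4% lower, and the median Log2FC was -0.76 against 0.00 over all genes. At dpi 10, 2 rose (Cacng5 and Grm4) and 4 fell, among them Grm3, Gria4 and Grin1, beside 8.55% and 5.55% of all genes. At dpi 42, 2 rose (again Cacng5 and Grm4) and 9 fell, beside 13.7% and 13%. These 3 comparisons share the naive OL libraries. In a fit of only the naive and dpi 2 OL libraries, 6 members were called lower at dpi 2.

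**Figure D2:**
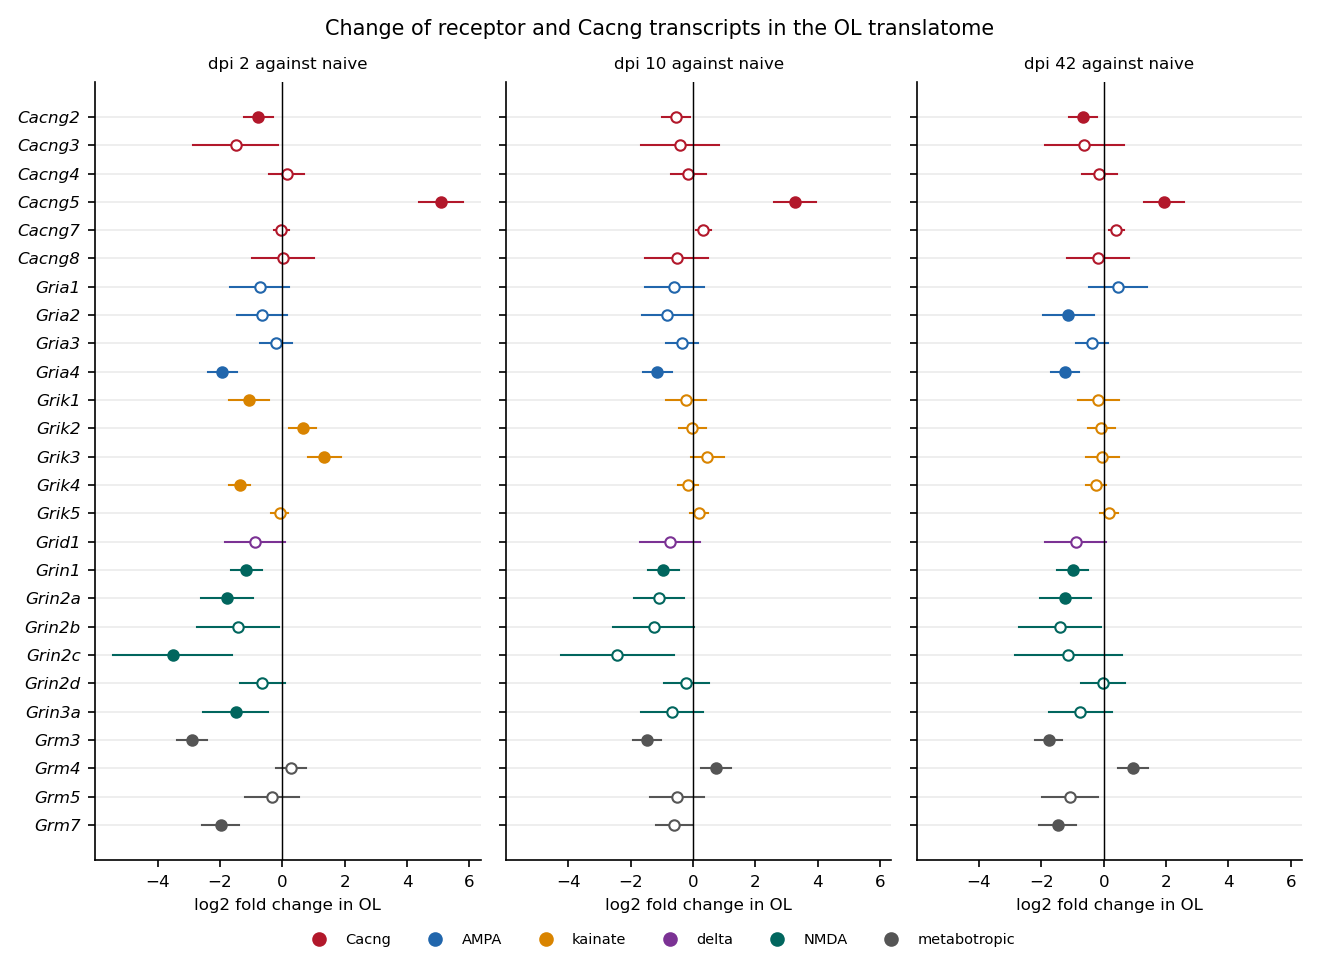
Change of the OL translatome against naive (Log2FC, horizontal axis) of 26 members at dpi 2, 10 and 42. Points are estimates from 3 against 3 OL libraries, bars are 95% confidence intervals, and filled points were called. Cacng5 lies farthest right in each panel (5.09, 3.27 and 1.93), and Grm3 lies left of 0 in each.

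Cacng5, which encodes the TARP gamma-5, an atypical TARP that modulates AMPA receptors, showed the largest rise of the members called higher. In naive OLs its level was 1.64, 2.67 and 0.803 CPM in replicates 1 to 3 (39, 63 and 21 counts). At dpi 2 it was 76.7, 47.8 and 49.2 CPM, at dpi 10 20.1, 14.9 and 14.2 CPM, and at dpi 42 6.61, 5.53 and 7.24 CPM. No OL library of one stage overlapped one of another: all 3 were lowest in naive tissue, highest at dpi 2 and stepwise lower afterwards. The Log2FC against naive was 5.09 ± 0.34 (SE, q = 4.46e-10) at dpi 2, 3.27 ± 0.32 (q = 3.3e-07) at dpi 10 and 1.93 ± 0.31 (q = 7.15e-05) at dpi 42, and the decline from dpi 2 was called at both later stages. Total RNA held 17.7, 16.6 and 22.9 CPM in naive tissue and 33.5, 20.3 and 24.8 CPM at dpi 2, so these ranges overlapped. The gene was therefore 11.2-fold lower in OL than in total RNA before injury and 2.21-fold higher at dpi 2, a call that was lost when libraries were scaled by size alone (0.57, q = 0.0705). At dpi 10 the enrichment was 0.45 (q = 0.182), and at dpi 42 it was -0.78 (q = 0.0251, -0.67 with q = 0.096 without OL dpi 42 replicate 2). Each of the 36 alternative settings kept all 3 OL calls of Cacng5.

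Cacng5 (chr11:107874605-107915055, minus strand) lies beside Cacng4 and Cacng1 on the same strand of chromosome 11. Cacng4, a TARP of type I, did not pass the test at any stage, with 7.02, 6.90 and 18.4 CPM in naive OLs and 10.8, 10.6 and 14.3 CPM at dpi 2 (Log2FC 0.14 ± 0.27, q = 0.751). Its naive replicate 3, one of the libraries high in astrocyte markers, stood above the other 2, and without those 5 libraries Cacng4 was called higher at dpi 2 (0.56, q = 0.024). Cacng7, encoding TARP gamma-7, held 109, 109 and 77.4 CPM in naive OLs and 97.1, 108 and 84.4 CPM at dpi 2 (-0.03 ± 0.12), and its rise of 0.40 at dpi 42 (q = 0.0112) stayed under the limit of 0.5. Cacng2 fell from 12.2, 10.9 and 8.72 CPM to 6.58, 4.37 and 7.73 CPM at dpi 2 (-0.76 ± 0.22, q = 0.00786), with no overlap. Its lower value at dpi 42 (-0.65, q = 0.0239) was not called without OL naive replicate 1 (-0.59, q = 0.079), OL dpi 42 replicate 1 (-0.63, q = 0.07) or replicate 2 (-0.63, q = 0.066). Cacng3 and Cacng8, which accompany neuronal AMPA receptors, were low in OL RNA and not called.

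Kainate receptor genes moved in both directions at dpi 2. Grik3 (chr4:125490700-125714173, plus strand), which encodes the low-affinity subunit GluK3, was at 9.03, 8.97 and 9.79 CPM in naive OLs and 28.3, 27.2 and 15.3 CPM at dpi 2. All 3 dpi 2 libraries were above the naive ones, replicate 3 by least. It rose 2.55-fold (Log2FC 1.35 ± 0.25, q = 0.000215) and stood at 0.46 (q = 0.226) at dpi 10 and -0.04 (q = 0.996) at dpi 42, with a call from dpi 2 to dpi 42 (-1.39 ± 0.25, q = 0.000576). Without the 5 libraries high in astrocyte markers, Grik3 was called higher in OLs at dpi 10 as well. Total RNA held 39.8, 42.6 and 55.0 CPM of Grik3 in naive tissue and 29.1, 23.8 and 30.9 CPM at dpi 2, a difference called in the lower direction (-0.71, q = 0.0264) but not in 17 of 36 alternative settings, among them those without total RNA naive replicate 3 (-0.56, q = 0.13), dpi 2 replicate 1 (-0.74, q = 0.052) or dpi 2 replicate 2 (-0.61, q = 0.11), or any 1 OL library other than dpi 2 replicate 3 (-0.57, q from 0.056 to 0.088). Grik2, encoding the principal channel subunit GluK2, was at 24.9, 24.3 and 17.7 CPM in naive OLs and 34.2, 25.8 and 45.0 CPM at dpi 2. The groups were separated by a narrow gap, and dpi 2 replicate 3 was the highest (0.65 ± 0.21, q = 0.0167). That call was lost without OL dpi 2 replicate 1 (0.59, q = 0.057), OL dpi 2 replicate 3 (0.37, q = 0.2) or OL naive replicate 3 (0.45, q = 0.13), and Grik2 stood at 0.23 (q = 0.39) without the 5 libraries high in astrocyte markers.

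Grik4 and Grik1 fell at dpi 2. Grik4, encoding the high-affinity auxiliary subunit GluK4, held 31.1, 31.1 and 34.8 CPM in naive OLs, 10.5, 11.0 and 16.3 CPM at dpi 2, 31.3, 28.6 and 27.3 CPM at dpi 10 and 29.5, 25.3 and 27.3 CPM at dpi 42. Only the dpi 2 libraries stood apart, and the later ones lay at or near the naive range. The Log2FC was -1.36 ± 0.16 (q = 9.9e-07) at dpi 2, and the gene was higher at dpi 10 than at dpi 2 by 1.21 ± 0.16 and at dpi 42 by 1.12 ± 0.16, both called. Grik1 was at 27.9, 18 and 12.1 CPM in naive OLs and 11.7, 8.59 and 7.38 CPM at dpi 2. The groups were barely separated. It fell by 1.07 on the log2 scale (q = 0.00994), which became -0.77 (q = 0.076) without OL naive replicate 1, the highest library. Grik5, the other high-affinity subunit gene, was at 53.2, 53.1 and 66.5 CPM in naive OLs and 46.3, 50.5 and 65.6 CPM at dpi 2. The difference of -0.09 had a 95% interval of -0.37 to 0.20.

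**Figure D3:**
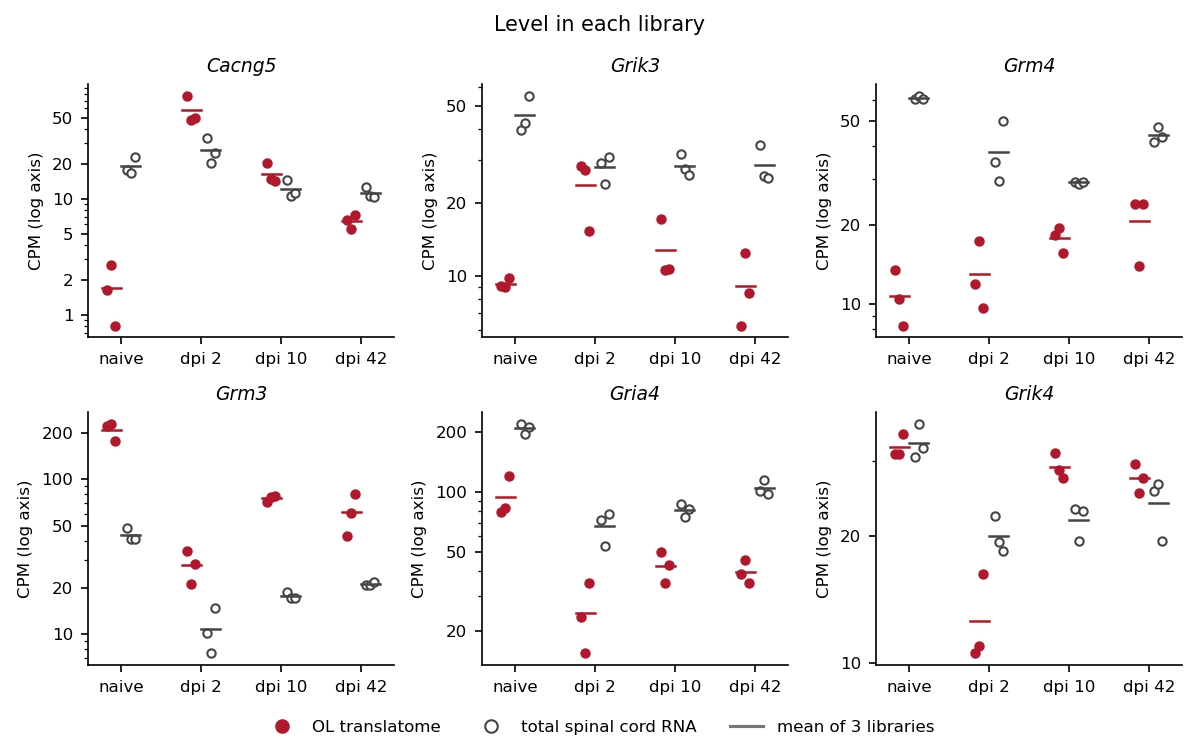
CPM of 6 members (vertical log axis) in each OL library (filled) and total RNA library (open) at the 4 stages, with lines at the mean of 3 libraries. Cacng5 in OLs climbs from 0.803-2.67 CPM in naive tissue to 47.8-76.7 CPM at dpi 2, while Grm3 falls from 176-229 to 21.1-34.4 CPM and Grik4 is low at dpi 2 alone.

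Grm3 (chr5:9485541-9725170, minus strand) encodes mGluR3, a Gi-coupled receptor also activated by the peptide N-acetylaspartylglutamate. Naive OL libraries held 222, 229 and 176 CPM (5276, 5407 and 4611 counts), dpi 2 libraries 34.4, 21.1 and 28.5 CPM, dpi 10 libraries 71.2, 76.7 and 77.8 CPM, and dpi 42 libraries 42.9, 61.0 and 80.0 CPM. Every injured library was below every naive one, the dpi 2 libraries were the lowest, and the dpi 10 and dpi 42 ranges overlapped. Grm3 was 7.45-fold lower at dpi 2 (Log2FC -2.90 ± 0.22, q = 3.2e-09), with -1.47 ± 0.21 (q = 4.62e-05) at dpi 10 and -1.77 ± 0.21 (q = 3.65e-06) at dpi 42, and the partial return from dpi 2 was called (1.42 at dpi 10 and 1.13 at dpi 42). Total RNA moved the same way, from 48.6, 41.0 and 41.5 CPM to 10.2, 7.51 and 14.8 CPM at dpi 2 (-2.01, called). OL enrichment of Grm3 stayed called at every stage, 4.78-fold in naive tissue, 2.59-fold at dpi 2, 4.26-fold at dpi 10 and 2.90-fold at dpi 42. All 36 alternative settings kept the 3 OL calls.

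Grm4, a presynaptic Gi-coupled receptor gene, was the member besides Cacng5 that rose at the later stages. Its OL level was 13.5, 10.5 and 8.26 CPM in naive tissue, 11.9, 17.4 and 9.64 CPM at dpi 2, 18.3, 19.6 and 15.7 CPM at dpi 10 and 24.2, 14 and 24.1 CPM at dpi 42. The dpi 2 libraries overlapped the naive ones, and those of dpi 10 and dpi 42 did not. The rise at dpi 42 (0.95 ± 0.23, q = 0.00313) was kept with each library left out in turn. The rise at dpi 10 (0.73 ± 0.23, q = 0.0311) was lost without OL dpi 10 replicate 1 (0.71, q = 0.073) or 2 (0.66, q = 0.1), OL naive replicate 2 (0.71, q = 0.092) or 3 (0.57, q = 0.12), or the 5 libraries high in astrocyte markers (0.50, q = 0.093).

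Grm7, a low-affinity presynaptic receptor gene, was at 36.1, 38.3 and 13.2 CPM in naive OLs and 7.29, 4.94 and 10.0 CPM at dpi 2, followed by 22.8, 19.3 and 15.9 CPM at dpi 10 and 8.63, 11.2 and 11.7 CPM at dpi 42. Naive replicate 3 was far below its group, yet above every dpi 2 library. Grm7 fell at dpi 2 (-1.98 ± 0.29, q = 1.36e-05) and dpi 42 (-1.48, q = 0.000404), whereas dpi 10 was not called (-0.60, q = 0.153) and was higher than dpi 2 (1.38, called). Without the 5 OL libraries high in astrocyte markers, Grm7 was called lower at dpi 10 too. Grm8 had 17, 5 and 3 counts in the naive OL libraries and none at dpi 2, which made it at least 2.98-fold lower against a floor of 3 counts in each library (q = 0.0031). Grm2 and Grm5 were not called in OLs.

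Among AMPA receptor genes, Gria4 (chr9:4417896-4796234, minus strand), encoding the fast-gating subunit GluA4, was the one that fell at every stage. It was at 79.3, 82.6 and 120 CPM in naive OLs, 23.6, 15.4 and 34.8 CPM at dpi 2, 49.8, 34.8 and 43.2 CPM at dpi 10 and 38.8, 45.4 and 34.8 CPM at dpi 42. All injured libraries were below the naive ones. The Log2FC was -1.93 ± 0.22 (q = 6.9e-07), -1.14 (q = 0.000794) and -1.24 (q = 0.000159), and each call was kept in all 36 alternative settings. Total RNA fell in parallel (-1.63, -1.36 and -1.0, all called), so that differential enrichment was -0.30, 0.22 and -0.25 and not called. Gria2, whose edited subunit makes AMPA receptors impermeable to calcium, was called in OLs at dpi 42 only (-1.13, q = 0.0298), and 4 libraries, OL dpi 42 replicates 1 (-1.19, q = 0.062) and 2 (-1.18, q = 0.058) and OL naive replicates 1 (-1.12, q = 0.061) and 3 (-1.09, q = 0.052), each ended that call when left out. Gria3 differed by -0.20 at dpi 2 and was not called at any stage. The delta receptor gene Grid1 was not called in OLs either.

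No NMDA receptor gene rose in the OL translatome at any stage. Of 7, 4 fell at dpi 2, 1 at dpi 10 and 2 at dpi 42, beside 16.4%, 5.55% and 13% of all genes. Grin1, the obligatory subunit, was at 15.3, 17.5 and 16.3 CPM in naive OLs, 6.16, 5.43 and 10.5 CPM at dpi 2, 9.90, 6.16 and 9.29 CPM at dpi 10 and 5.31, 9.07 and 10.3 CPM at dpi 42. The naive libraries were above all injured ones, which overlapped each other. Its Log2FC was -1.15 (q = 0.000569), -0.95 (q = 0.00702, lost without OL dpi 10 replicate 2: -0.77, q = 0.053) and -0.99 (q = 0.00264). Grin2a, with 6.26, 5.71 and 2.68 CPM in naive OLs and 2.23, 0.324 and 1.68 CPM at dpi 2, fell at dpi 2 (-1.78, q = 0.00139), with no overlap, and at dpi 42 (-1.24, q = 0.0186). The latter call was lost without OL dpi 42 replicate 1 (-1.17, q = 0.063), OL naive replicate 1 (-1.07, q = 0.072) or OL naive replicate 2 (-1.17, q = 0.053). Grin3a was lower at dpi 2 (-1.5, q = 0.0214), but not without OL naive replicate 3 (-1.04, q = 0.11), OL dpi 2 replicate 1 (-1.30, q = 0.074) or OL dpi 2 replicate 2 (-1.16, q = 0.078). Grin2b, Grin2d and Grin3b were not called in OLs at any stage. Grin1 and Grin2a stood at 331 to 381 and 51.3 to 68.0 CPM in naive total RNA, and their OL levels moved beside a neuron marker sum of 816 to 968 CPM in naive OL libraries, 1138 to 1437 at dpi 2, 679 to 803 at dpi 10 and 644 to 854 at dpi 42. The part of neuronal RNA in these results was not tested.

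Several members were high in the OL libraries that were high in astrocyte markers. Grin2c, the NMDA subunit gene known from astrocytes, was at 5.13, 5.29 and 38.4 CPM in naive OLs and 0.794, 0 and 3.44 CPM at dpi 2. At dpi 42 it was at 9.26, 11.8 and 1.06 CPM, so that its highest libraries (naive replicate 3, dpi 42 replicates 1 and 2) were among the 5. The fall at dpi 2 (-3.52 ± 0.92, q = 0.00432) became -1.94 (q = 0.063) without OL naive replicate 3. Gria1, at 21.1, 16.8 and 63.6 CPM in naive OLs and 63.9, 55.7 and 19.7 CPM at dpi 42, was highest in the same 3 libraries and was not called. In naive tissue the library high in these markers stood above the mean of the other 2 by 7.37-fold for Grin2c, 4.31-fold for Grid1, 4.19-fold for Cacng8 and 3.35-fold for Gria1, against 0.78-fold for Grm3 and 0.37-fold for Cacng5. At dpi 2 the same ratio was 8.68 for Grin2c, 3.10 for Grid1, 2.43 for Cacng8 and 2.57 for Gria1, against 1.03 for Grm3. At dpi 10 it was 1.41 for Grin2c, 1.94 for Grid1, 1.85 for Cacng8 and 1.19 for Gria1, and at dpi 42 it was 9.99, 1.19, 2.33 and 3.04. For Cacng5 it was 0.79 to 0.87 at the injured stages. The part of astrocyte RNA in these values was not tested.

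**Figure D4:**
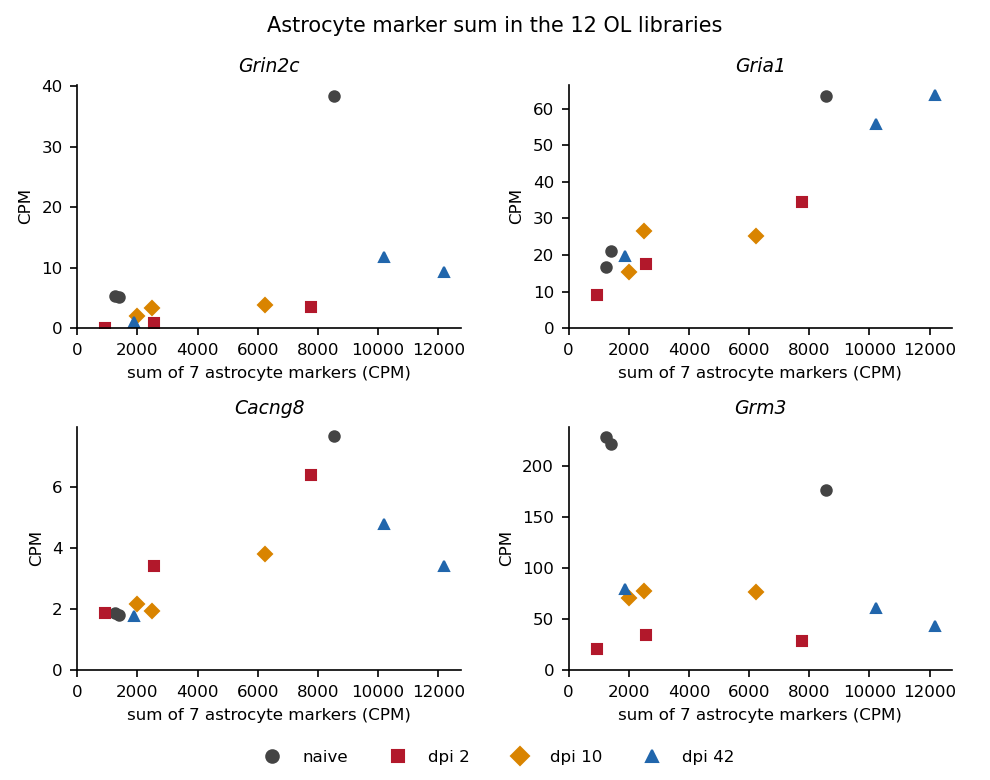
CPM of Grin2c, Gria1, Cacng8 and Grm3 (vertical axis) against the summed CPM of 7 astrocyte markers (horizontal axis) in the 12 OL libraries, 1 point a library. The 5 libraries at 6244 to 12188 CPM of markers lie right of a gap from the 7 at 930 to 2565 CPM.

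Without these 5 libraries, a choice made after seeing the data, 20 members in place of 13 were called lower in OLs at dpi 2. All 13 were among the 20, and Gria2, Gria3, Grin2b, Grin2d, Grid1, Grm5 and Cacng3 were added. At dpi 10, 8 members in place of 4 were called lower. Cacng5 and Grik3 were still called higher at dpi 2, at 4.79 and 1.56. That fit leaves a single OL library at dpi 42, assumed to vary like the others.

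In total RNA no member was called higher at any stage, by this test, by an unadjusted p below 0.05 or by DESeq2. Cacng5 was called higher at dpi 2 in the fit without the 5 OL libraries high in astrocyte markers. There were 23, 15 and 13 members called lower at dpi 2, 10 and 42, where 17%, 13.3% and 7.76% of all genes were called lower and 14.3%, 12.4% and 9.15% higher. The median over members was -1.26, -0.94 and -0.69, against -0.10, -0.10 and -0.08 over all genes. All 7 NMDA receptor genes were among the 23 at dpi 2, with 4 of 5 kainate and 3 of 4 AMPA receptor genes. Of the 36 alternative settings, 26 lost the call of Grin2c, 19 that of Grik5, 17 that of Grik3, 13 that of Grik2 and 12 that of Grin3b. The calls of Grin1, Grin2a, Grin2d, Gria2, Gria3 and Gria4 were kept in all 36. With 1 library left out in turn, 13 to 22 members were called lower at dpi 2, and without pool 2 of dpi 2 there were 14. Grin1 fell from 331, 369 and 381 CPM to 156, 112 and 182 CPM, and Cacng2 from 173, 183 and 187 CPM to 67.0, 55.9 and 80.6 CPM, neither with overlap. The neuron marker sum of these libraries was 10580 to 11359 CPM in naive tissue and 4837 to 6101 at dpi 2, and its part in the fall was not tested. Scaled by library size alone, 14, 9 and 4 members were called lower.

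Differential OL enrichment is the OL change minus the total RNA change. It asked whether OL RNA changed otherwise than total RNA, which holds RNA of all cord cells, OLs included. At dpi 2 it was called higher for 5 members (Cacng5, Grik3, Gria3, Grik2 and Cacng7) and lower for none, where 7.57% and 5.68% of all genes were called, and the median was 0.45 against 0.06 over all genes. At dpi 10 it was called higher for Cacng5, Grm4, Grik3 and Cacng7 (4.27% and 2.94% of all genes higher and lower), and at dpi 42 for Cacng5 and Grm4 (4.12% and 3.34%). No member was called lower, although at an unadjusted p below 0.05 there were 5, 0 and 2 lower and DESeq2 called 3, 0 and 0. Cacng5 had the largest values, 4.63 ± 0.42 (q = 5.89e-07), 3.94 ± 0.42 (q = 6.01e-06) and 2.71 ± 0.42 (q = 0.000496). Its mean in total RNA was 4.97 CPM per kb in naive tissue, 3.14 at dpi 10 and 2.89 at dpi 42. The 2 later values thus include a lower total RNA mean beside the OL rise. That fall in total RNA was called at dpi 42, a call lost in 25 of 36 alternative settings. For Grik3 the value was 2.06 ± 0.35 (q = 0.00046) at dpi 2 (OL 1.35, total RNA -0.71) and 1.15 ± 0.35 (q = 0.0478) at dpi 10, a call that was lost in 25 of 36 alternative settings. Grik2, with 1.32 ± 0.29 (q = 0.0041), kept its call in all 36.

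For Grm4 the OL change exceeded that of total RNA by 1.80 (q = 0.00129) at dpi 10 and 1.42 (q = 0.00872) at dpi 42, the latter 1.16 (q = 0.051) without OL dpi 42 replicate 1. Its total RNA fell by 1.07 on the log2 scale at dpi 10. For Gria3, the value of 1.41 ± 0.34 (q = 0.00714) at dpi 2 came with a fall in total RNA from 128, 125 and 123 CPM to 46.4, 33 and 43.9 CPM and an OL level of 9.96, 5.96 and 9.10 CPM against 5.63, 4.62 and 11.5 CPM. It became 0.70 (q = 0.075) without OL dpi 2 replicate 3 and 1.00 (q = 0.062) without OL naive replicate 2. Cacng7 stood at 0.65 (q = 0.0104) at dpi 2, lost in 15 of 36 alternative settings and 0.29 (q = 0.19) without OL naive replicate 3, and at 0.75 (q = 0.00721) at dpi 10. Grm3, at -0.89 ± 0.30 (q = 0.053) at dpi 2, was called lower with a term for each tissue pool (-0.86, q = 0.0292). The same term added Grik5 at dpi 10 (0.63, q = 0.0149) and at dpi 42 (0.52, q = 0.0332). Without the 5 libraries high in astrocyte markers, Grm3, Grik1, Gria4, Grik4 and Grm7 were called lower at dpi 2.

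Under the filtration with 2 arms of the study, a regulated gene had to change in OLs past a Log2FC of 1 and either show differential enrichment past 1 in the same direction (arm 1) or be enriched past 1 in OLs of both naive and injured tissue (arm 2). Cacng5 passed as up-regulated by arm 1 at all 3 stages and Grik3 at dpi 2, while Grm3 passed as down-regulated by arm 2 at all 3. At dpi 2, 12 members were down past 1 and Grm3 was the one that passed, at dpi 10 it was 1 of 2 and at dpi 42 1 of 7. Of all 17167 genes tested, 1176, 217 and 700 were down past 1 at these stages, and 299, 30 and 124 of them passed. Up-regulated genes that passed made up 2.11%, 0.693% and 1.16% of all genes at dpi 2, 10 and 42, and down-regulated ones 1.74%, 0.175% and 0.722%.

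Between injured stages, 5 members were higher in OLs at dpi 10 than at dpi 2 (Grm3, Gria4, Grik4, Grm7 and Grm8, beside 9.55% of all genes) and 3 were lower (Cacng5, Grik3 and Grik2, beside 7.92%). At dpi 42 against dpi 2, 5 were higher (Grm3, Gria4, Grik4, Grm4 and Grm8, beside 7.12%) and the same 3 were lower (beside 6.43%). Cacng5 was lower by 1.82 ± 0.28 and 3.16 ± 0.30 on the log2 scale. These comparisons share the dpi 2 OL libraries. Of the higher calls at dpi 42, that of Grm4 (0.68) was lost in 18 of 36 alternative settings and that of Gria4 (0.69) in 9.

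Related genes outside the receptor families were counted in 4 lists, to be read beside all genes, of which 15.9% were called higher and 16.4% lower in OLs at dpi 2, 8.55% and 5.55% at dpi 10, and 13.7% and 13% at dpi 42. Of 19 AMPA receptor partners, 4 rose and 4 fell in OLs at dpi 2 (median -0.29), 3 rose and 3 fell at dpi 10, and 5 rose and 2 fell at dpi 42. Olfm1, a secreted partner of the AMPA receptor complex, rose at all stages, from a mean of 136 CPM in naive OLs to 289, 228 and 226 CPM (Log2FC 1.09, 0.75 and 0.73), and Nptx2, a neuronal pentraxin that clusters AMPA receptors, from 0.430 to 4.97 CPM at dpi 2 (3.51). Cnih3 at dpi 10 (2.01) and Cnih2 at dpi 42 (1.18), encoding cornichon subunits, rose from low levels. Of 20 kainate and NMDA receptor partners and delta receptor ligands, 4 rose and 4 fell at dpi 2 (median -0.49), 3 rose and 2 fell at dpi 10, and 4 rose and 4 fell at dpi 42. C1ql2, a C1q-like ligand of kainate receptors, rose from 0.233 to 14.5 CPM at dpi 2 (5.94), and Ptpn5, the phosphatase STEP that removes NMDA receptors from the surface, rose from 4.92 to 16.5 CPM (1.75). Nrxn2 fell (-0.86), as did Dao, the D-amino acid oxidase gene (-5.83).

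Of 21 postsynaptic scaffold and kinase genes, 3 rose and 5 fell at dpi 2 (median -0.07, beside 15.9% and 16.4% of all genes), 1 rose and 2 fell at dpi 10, and none rose and 3 fell at dpi 42. Dlg2, encoding PSD-93, fell at each stage, from 110 to 37.0, 70.9 and 46.5 CPM (-1.58, -0.64 and -1.25), while Shank2 (1.58) rose at dpi 2. Of 22 genes of glutamate transport and metabolism, none rose and 11 fell at dpi 2 (median -0.80), 1 rose and 3 fell at dpi 10, and none rose and 5 fell at dpi 42. Folh1, whose product cleaves N-acetylaspartylglutamate, fell from 59.0 to 14.3, 31.9 and 22.9 CPM (-2.04, -0.89 and -1.36), and Glul, encoding glutamine synthetase, fell from 11739 to 6677 CPM at dpi 2 (-0.81). Slc1a3, the GLAST transporter gene of astrocytes, fell at dpi 2 (-1.87). The astrocyte marker sum was 1254 to 8541 CPM in naive OL libraries and 930 to 7764 CPM at dpi 2. The part of astrocyte RNA in this fall was not tested.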

How the data were processed

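OL-translatome and total RNA libraries, 3 of each from naive, dpi 2, dpi 10 and dpi 42 spinal cord, were sequenced. Per the study's methods the authors checked reads with FastQC (0.10.1), aligned them to mm10 with STAR and deposited raw counts per gene from HTSeq (0.10.0) in 1 table. Groups came from the labels. Members and lists were chosen with earlier results of these data known.

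The 17167 genes that reached 10 counts summed over 24 libraries entered 1 edgeR (4.0.16; R 4.3.3) quasi-likelihood fit with a mean per group (8 groups), TMM scaling, 15 comparisons and Benjamini-Hochberg q. Called means q below 0.05 and a log2 fold change past 0.5. TMM factors were 0.742 to 0.899 in OL and 1.10 to 1.29 in total RNA, and depth was 25840127 to 32987841 counts (median 29062636). Counting limits cover counting error only. Exon lengths and coordinates are GENCODE's for GRCm38, and promoters are RefSeq's for GRCm38.p6 (21 of 34 members matched). The named-gene rule took every member and, of each related list and comparison, up to 4 called genes with the smallest p. The individual results of some of these genes are not reported here, but they stay in all fits and counts.

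OL and total RNA of a pool came from the same tissue. Deviations from group means correlated at -0.011 to 0.137 within pools and -0.105 to 0.050 between pools. A term for each pool, DESeq2 (1.42.0), other scalings, filters and sample sets, and leaving out each library were alternatives. The script was tested on simulated data.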

Additional observations from a re-analysis of the deposited data

Results flagged for a closer look

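The results below stood out in edgeR's test of the difference itself. Either the OL change differed from that of total spinal cord RNA, or 2 injured stages differed in the OL translatome. No explanation was weighed.

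At dpi 2, differential OL enrichment was 4.63 for Cacng5, 2.06 for Grik3, 1.41 for Gria3, 1.32 for Grik2 and 0.65 for Cacng7. At dpi 10 it was 3.94 for Cacng5, 1.80 for Grm4, 1.15 for Grik3 and 0.75 for Cacng7, and at dpi 42 it was 2.71 for Cacng5 and 1.42 for Grm4. All are log2 differences in which the OL change exceeded the change in total RNA. They do not place the OL level above that of total RNA.

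In the OL translatome, dpi 10 exceeded dpi 2 by 1.42 for Grm3, 1.38 for Grm7, 1.21 for Grik4 and 0.79 for Gria4 on the log2 scale, while Cacng5 (-1.82), Grik3 (-0.89) and Grik2 (-0.67) were lower. At dpi 42 against dpi 2, the log2 difference was 1.13 for Grm3, 1.12 for Grik4, 0.69 for Gria4 and 0.68 for Grm4, against -3.16 for Cacng5, -1.39 for Grik3 and -0.73 for Grik2. Grm8 had no counts at dpi 2, so its fitted values of 5.94 at dpi 10 and 6.42 at dpi 42 depend on the prior count; against the floor of 3 counts it was at least 2.18-fold and 3.05-fold higher.

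Groups of 3 libraries were too small for a test of single outlying libraries.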

How the results depend on the processing

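Across the 36 alternatives no value that was called in the main fit or in the alternative reversed its direction. Values called in neither were not checked for direction. With 1 library left out in turn, the count of members called higher and lower in OL change was 2 to 3 and 12 to 18 at dpi 2, 1 to 2 and 2 to 7 at dpi 10, and 2 to 3 and 6 to 11 at dpi 42. For OL enrichment it was 1 to 2 and 24 to 25 in naive tissue, 2 to 3 and 22 to 23 at dpi 2, 1 to 2 and 19 to 21 at dpi 10, and 1 and 22 to 24 at dpi 42. For differential enrichment it was 3 to 7 and 0 to 5, 2 to 4 and 0, and 1 to 3 and 0 to 2 at the 3 stages. In total RNA 0 to 1, 0 and 0 were higher and 13 to 22, 9 to 14 and 4 to 12 lower. For dpi 10 and dpi 42 against dpi 2 it was 4 to 8 higher each, and 1 to 3 and 2 to 4 lower.

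Without the 5 OL libraries high in astrocyte markers (chosen after seeing the data), the count was 2 for higher naive enrichment, 20 and 8 for lower OL change at dpi 2 and dpi 10, 1 for higher total RNA at dpi 2, 5 and 1 for lower differential enrichment at dpi 2 and dpi 42, 7 for higher differential enrichment at dpi 10, and 11 and 12 for higher OL RNA at dpi 10 and dpi 42 against dpi 2. With only the groups compared in the fit, it was 6 for lower OL change at dpi 2, 1 for higher total RNA at dpi 2, 24 and 20 for lower total RNA at dpi 10 and dpi 42, 3 higher and 1 lower for dpi 10 against dpi 2, and 2 higher for dpi 42 against dpi 2. Scaled by library size alone, which moved the median of all genes by -0.57 to 0.20, it was 1 for higher enrichment at dpi 2 and at dpi 10, 14, 9 and 4 for lower total RNA, and 1 for lower differential enrichment at dpi 2. At a log2 limit of 1, it was 1 for higher enrichment at dpi 10, 1 and 2 for higher and lower OL change at dpi 10, 1 for higher OL change at dpi 42, 9 and 4 for lower total RNA at dpi 10 and dpi 42, 1 lower for dpi 10 against dpi 2 and 3 higher for dpi 42 against dpi 2. DESeq2 called 1 for higher enrichment at dpi 10, as did edgeR with DESeq2 size factors, and 3 for lower differential enrichment at dpi 2. Without pool 2 of dpi 2, it was 7 for lower OL change at dpi 10, 14 for lower total RNA at dpi 2 and 1 for lower differential enrichment at dpi 2. Without both dpi 42 libraries of conflicting labels, the last of these was 1 as well. The cause of these shifts was not tested.

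The replicate block by tissue pool gave 1 for higher enrichment at dpi 10 and 1 for lower differential enrichment at dpi 2. Apart from calls of Grik1, Grin2c, Grm2, Grik5 and Grm3 it changed no other call. Replicate numbers across stages mark no shared source (r from -0.309 to 0.248 for the same number, -0.174 to 0.221 for different ones), and a block on them gave 7 for higher OL RNA at dpi 42 against dpi 2 in place of 5, and 22, 14 and 11 for lower total RNA. Low members such as Cacng6, Grm8 and Grin3b are limited by depth.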
